A study of Homo sapiens with 4 samples.

Results

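Small nucleolar RNA host genes are transcribed as spliced, polyadenylated RNAs whose introns carry small nucleolar RNAs (snoRNAs). The 10 host genes described here, SNHG1, SNHG5, SNHG6, SNHG7, SNHG8, SNHG12, SNHG15, SNHG16, GAS5 and ZFAS1, were picked by symbol as spliced hosts with 5' TOP starts, and all 10 were found among the 60676 genes of the deposited tables. They were read in 4 RNA libraries of the human osteosarcoma cell line U2OS, made by native nuclear RNA immunoprecipitation, in which RNA recovered with an antibody from an uncrosslinked nuclear lysate is sequenced. The libraries were an anti-LC3B pull-down (written "with LC3B" below), a pull-down with IgG ("with IgG"), the input that accompanied the LC3B pull-down and the input that accompanied the IgG pull-down, both inputs taken without antibody. LC3B is a ubiquitin-like protein of autophagosome membranes, and the study asked which RNAs it binds. Each group held 1 library, so differences could not be checked across replicates and carry no p-value.

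As background, the exons of these hosts have little coding capacity, and for many of them the released snoRNA is the best known product. Their transcription starts with a run of pyrimidines, the 5' terminal oligopyrimidine (TOP) signal that ribosomal protein mRNAs also carry and that the RNA-binding protein LARP1 recognises. Spliced GAS5 is known to be degraded by nonsense-mediated decay when it is translated, and it accumulates in growth-arrested cells. Intronic snoRNAs of the box C/D class guide 2'-O-methylation of ribosomal RNA, and those of the box H/ACA class guide pseudouridylation.

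The start regions of 8 of the 10 hosts, taken from the RefSeq promoter table (build GRCh38.p14), are shown because a TOP start is what the hosts were chosen for. Each sequence runs 5' to 3' on the gene's strand from 40 bases before the RefSeq start through the first 20 transcribed bases. Capitals mark TATAA where it lies within 40 to 16 bases before the start, and the longest run of a C followed by at least 4 bases that are C or T, where it begins within 10 bases of the start.
ZFAS1, chr20:49278602-49278661, plus strand: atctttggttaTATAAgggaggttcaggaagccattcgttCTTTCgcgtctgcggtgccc
SNHG8, chr4:118278722-118278781, plus strand: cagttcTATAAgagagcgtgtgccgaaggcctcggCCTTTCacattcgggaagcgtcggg
SNHG5, chr6:85678714-85678773, minus strand: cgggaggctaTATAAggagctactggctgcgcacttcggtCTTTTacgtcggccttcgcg
SNHG7, chr9:136728165-136728224, minus strand: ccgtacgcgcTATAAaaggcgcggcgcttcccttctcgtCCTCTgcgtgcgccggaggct
SNHG12, chr1:28581854-28581913, minus strand: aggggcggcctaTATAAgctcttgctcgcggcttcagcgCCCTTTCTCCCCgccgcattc
SNHG16, chr17:76557724-76557783, plus strand: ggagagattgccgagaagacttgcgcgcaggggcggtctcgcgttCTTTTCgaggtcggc
SNHG1, chr11:62855866-62855925, minus strand: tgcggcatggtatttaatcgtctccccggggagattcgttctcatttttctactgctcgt
GAS5, chr1:173869026-173869085, minus strand: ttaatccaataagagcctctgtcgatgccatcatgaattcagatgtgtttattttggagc

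A pyrimidine run of this kind was found in 6 of the 8 windows, against 30.4% of 35116 RefSeq promoters, and TATAA in 5 of the 8, against 3.91% of the same promoters. Since the hosts were chosen for TOP starts, the share with a run is no test of such starts. The run began 5 bases before the RefSeq start for SNHG8 and at transcribed base 6 for SNHG16. Both motifs were searched on the gene's strand only. The windows of SNHG1 and GAS5 held neither. The GAS5 start in the RefSeq table lay 163 bases outside the gene's span in the deposited tables. Other RefSeq starts lay inside the span, away from its 5' end by 1259 bases for SNHG12, 464 for ZFAS1, 199 for SNHG5, 68 for SNHG1 and 53 for SNHG8. Those of SNHG7 and SNHG16 matched the 5' end. SNHG6 and SNHG15 were measured and are described below without a start sequence.

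Totals outside mitochondrial genes were 10375786 reads with LC3B, 9824400 with IgG, 8542486 for the LC3B input and 8404123 for the IgG input. Mitochondrial genes took 0.774% of all reads with LC3B and 1.76% with IgG, against 20.8% of the LC3B input and 22.8% of the IgG input, so levels are given as CPM, reads per 1000000 outside mitochondrial genes. The IgG pull-down stood apart from the other libraries: 19.7% of the 15431 genes tested (those averaging 1 CPM or more over all 4 libraries) had 0 reads in it, against 0.402% in the LC3B pull-down and 0.350% in each input. All 10 hosts had reads in all 4 libraries and passed that filter, with 83 reads of SNHG12 as the lowest count. As a check of the cell line, the mesenchymal mRNAs SPARC, VIM, COL1A1 and RUNX2 lay at 20.1 CPM or more in both inputs, while COL1A2 had 0 reads in the input of LC3B and 2 in that of IgG. The leukocyte genes PTPRC and CD3E had at most 3 reads in either input, and the epithelial gene EPCAM had 14.98 CPM in the LC3B input and 18.2 CPM in the IgG input.

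Per transcript length, as deposited TPM, SNHG6 was the host with the highest level in the inputs, at 123 TPM in the LC3B input and 113 TPM in the IgG input. SNHG6 carries a box C/D snoRNA and lies on chromosome 8, 66921684 to 66926398, in the hg38 coordinates of the tables. GAS5 followed with 93.4 and 79.9 TPM in the LC3B and IgG inputs and ZFAS1 with 83.9 and 71.4 TPM, and the ranges of this pair over the inputs overlapped. SNHG16 (62.0 and 61.2 TPM), SNHG15 (60.8 and 52.6 TPM), SNHG8 (49.0 and 40.8 TPM) and SNHG5 (24.0 and 22.3 TPM) came next, without overlap between neighbours. SNHG1 (18.8 and 15.4 TPM) and SNHG7 (16.5 and 16.4 TPM) overlapped, and SNHG12 was lowest at 12.2 TPM in the LC3B input and 9.61 TPM in the IgG input. By reads rather than per length, SNHG16 gave the most, at 30.5% of the host reads of the LC3B input and 33.1% of those of the IgG input.

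**Figure D1:**
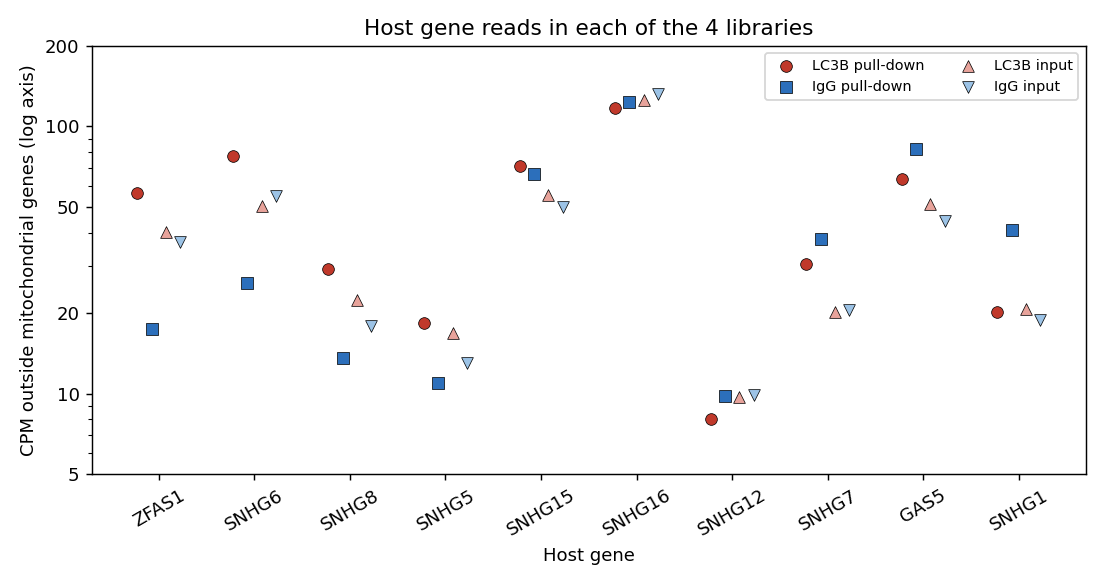
CPM outside mitochondrial genes (log axis) of each of the 10 host genes, with 1 point per library: LC3B pull-down (circle), IgG pull-down (square), LC3B input (upward triangle) and IgG input (downward triangle). Genes are ordered by the fold of the LC3B over the IgG pull-down, and the IgG squares lie lowest of the 4 for ZFAS1, SNHG6, SNHG8 and SNHG5, on the left, and highest for SNHG7, GAS5 and SNHG1, on the right.

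Setting LC3B beside IgG asks which RNAs came down above background, and the hosts did not move as a group. A gene was called when the whole exact 95% counting interval of its fold lay at or above 2 (higher) or at or below 0.5 (lower). By this rule 2 of the 10 hosts, ZFAS1 and SNHG6, were called higher, against 33.8% of the 15431 genes tested, and 0 were called lower, against 9.45%. Among 7177 more abundant genes (20 CPM or more as the mean of both inputs), of which 231 had 0 reads with IgG, 18.7% were called higher and 6.9% lower, against 2 and 0 of the 7 hosts at that level. Taking every interval that lay wholly on one side of 1, 4 hosts were above and 3 below, against 53.6% above and 32% below among genes tested, and 47.2% above and 39.8% below at 20 CPM and more. The median log2 fold was 0.01 over the hosts, 0.41 over all genes tested and 0.10 over genes of at least 20 CPM. Summed over the 10 hosts there were 5109 reads with LC3B and 4201 with IgG, a fold of 1.15 (95% counting interval 1.11 to 1.20). In deposited TPM the summed fold was 1.58. Counting intervals cover counting error only, since each group held 1 library. PCR copies were not told apart by molecular identifiers, and the intervals take no account of such copies.

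ZFAS1, whose introns carry the SNORD12 family and which is antisense to ZNFX1 (chromosome 20, 49278178 to 49299600), had 56.4 CPM with LC3B, 17.4 CPM with IgG, 40.3 CPM in the LC3B input and 36.9 CPM in the IgG input. The IgG pull-down was the low library and the LC3B pull-down the high one, with the inputs between. Its fold over IgG was 3.24 (2.73 to 3.86), which ranked above 67.7% of all genes tested. SNHG6 showed the same order of libraries, with 77.7 CPM with LC3B, 25.9 CPM with IgG, 50.3 CPM in the LC3B input and 55.0 CPM in the IgG input. Its fold over IgG was 3.005 (2.61 to 3.47).

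SNHG8, the host of SNORA24 (chromosome 4, 118278709 to 118285316), had 29.3 CPM with LC3B, 13.5 CPM with IgG, 22.5 CPM in the LC3B input and 17.8 CPM in the IgG input. Its fold of 2.16 (1.76 to 2.67) was above 2 with an interval that reached below it, so it was not called. SNHG5, the host of the SNORD50 pair (chromosome 6, 85650491 to 85678932), had 18.3 CPM with LC3B, 10.99 CPM with IgG, 16.9 CPM in the LC3B input and 13.0 CPM in the IgG input. For SNHG5 the fold over IgG was 1.67 (1.31 to 2.13), also uncalled, and the LC3B pull-down stood close to its input.

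SNHG1, the host of several box C/D snoRNAs, SNORD22 among them (chromosome 11, 62851984 to 62855953), ran the other way, at 20.2 CPM with LC3B, 40.8 CPM with IgG, 20.7 CPM in the LC3B input and 18.8 CPM in the IgG input. Here the IgG pull-down was the single high library and the other libraries lay close together. Its fold over IgG was 0.496 (0.418 to 0.587), uncalled because the interval passed 0.5. GAS5 (chromosome 1, 173858559 to 173868882) had 63.4 CPM with LC3B, 81.9 CPM with IgG, 51.0 CPM in the LC3B input and 44.1 CPM in the IgG input. Both pull-downs were above both inputs, and the fold of LC3B over IgG was 0.774 (0.697 to 0.859). SNHG7, the host of the SNORA17 pair (chromosome 9, 136721366 to 136728184), had 30.6 CPM with LC3B, 37.8 CPM with IgG, 20.1 CPM in the LC3B input and 20.5 CPM in the IgG input. For SNHG7 both pull-downs again exceeded both inputs, with a fold over IgG of 0.812 (0.696 to 0.945).

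The other 3 hosts had folds over IgG whose intervals included 1. SNHG15, the host of SNORA9 (chromosome 7, 44983023 to 44986961), had 71.0 CPM with LC3B, 66.3 CPM with IgG, 55.3 CPM in the LC3B input and 49.7 CPM in the IgG input, a fold of 1.07 (0.963 to 1.19). SNHG16, the host of the SNORD1 cluster (chromosome 17, 76557764 to 76565348), had 117 CPM with LC3B, 123 CPM with IgG, 126 CPM in the LC3B input and 132 CPM in the IgG input, and its fold was 0.952 (0.879 to 1.03). SNHG12, which carries SNORA16A, SNORA44, SNORA61 and SNORD99 (chromosome 1, 28578538 to 28583132), had 7.999 CPM with LC3B, 9.77 CPM with IgG, 9.72 CPM in the LC3B input and 9.88 CPM in the IgG input. With so few reads its fold of 0.819 had a wide interval (0.603 to 1.11), and a difference of that size was not detectable at this depth.

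**Figure D2:**
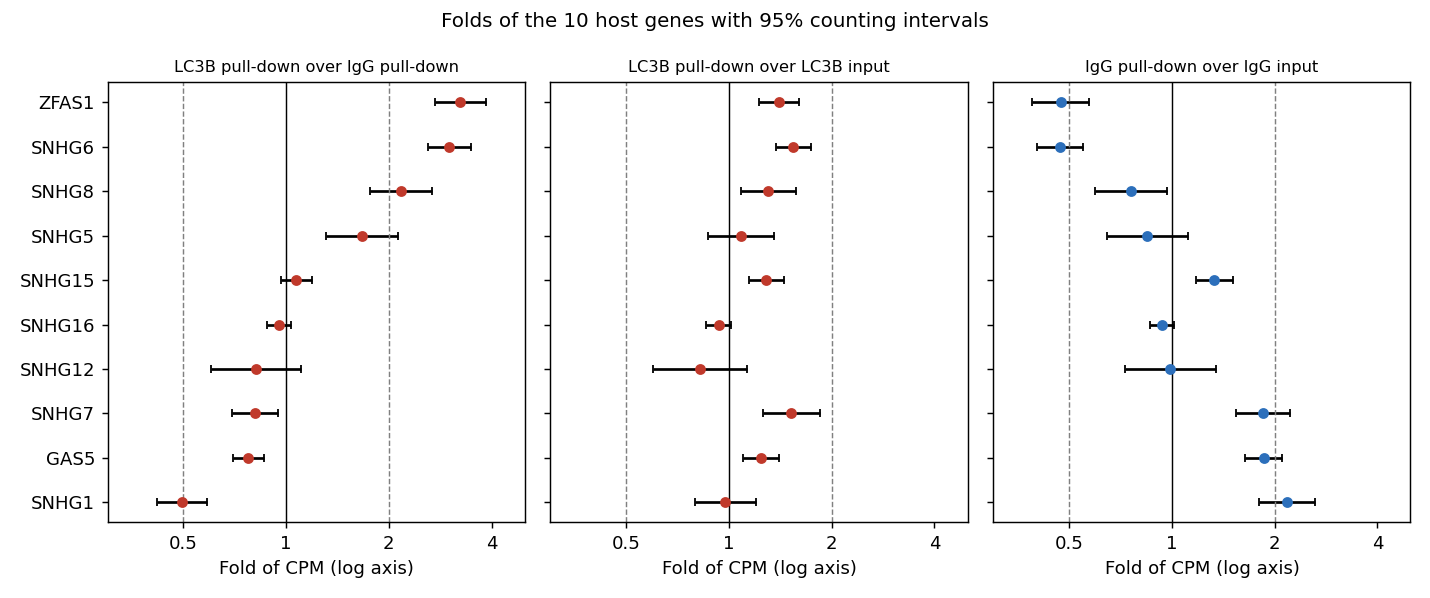
Fold of CPM (log axis) of the 10 host genes in LC3B over IgG (left), LC3B over input (middle) and IgG over input (right). Points are folds, bars are exact 95% counting intervals, the solid line is 1 and dashed lines are 0.5 and 2. Folds over IgG run from 3.24 for ZFAS1 to 0.496 for SNHG1, the LC3B panel spans 0.823 to 1.54 and the IgG panel 0.470 to 2.17.

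Relative to the matching input, the LC3B pull-down held slightly more of most hosts. The folds ran from 0.823 for SNHG12 to 1.54 for SNHG6, and 0 of 10 were called higher (1.4% of genes tested, 1.21% at 20 CPM and more) and 0 lower (4.48%, and 7.38% at 20 CPM and more). Taking instead every interval that lay wholly on one side of 1, 6 of 10 hosts were above their input level and 0 below, against 30.7% above and 31.1% below among all genes tested. At 20 CPM and more the background was 35.8% above and 46.1% below, against 6 and 0 of the 7 hosts. These 6 were SNHG6 at 1.54 (1.37 to 1.74), SNHG7 at 1.52 (1.26 to 1.84), ZFAS1 at 1.40 (1.22 to 1.60), SNHG8 at 1.30 (1.08 to 1.57), SNHG15 at 1.29 (1.14 to 1.45) and GAS5 at 1.24 (1.10 to 1.41). SNHG5 at 1.09 (0.870 to 1.36), SNHG1 at 0.977 (0.796 to 1.20), SNHG16 at 0.933 (0.859 to 1.01) and SNHG12 at 0.823 (0.600 to 1.13) included 1. The median log2 fold was 0.34 over the hosts, 0.01 over all genes tested and -0.10 over genes of at least 20 CPM, and the summed counts gave a fold of 1.19 (1.14 to 1.25). With mitochondrial reads kept in the totals the summed fold was 1.49, and the median of all genes tested moved by a like amount, to 0.32.

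In the IgG pull-down the same hosts were spread over a wider range. Of 10 hosts, 0 were called higher than in the IgG input (9.69% of genes tested, 5.52% at 20 CPM and more) and 0 lower (33.6%, and 20.5% at 20 CPM and more). Intervals lay wholly above 1 for 4 hosts and wholly below 1 for 3, against 31.2% above and 53.4% below among all genes tested, and 35.2% above and 51.5% below at 20 CPM and more. The 4 were SNHG1 at 2.17 (1.80 to 2.63), GAS5 at 1.86 (1.64 to 2.10), SNHG7 at 1.85 (1.54 to 2.22) and SNHG15 at 1.33 (1.18 to 1.51). The 3 below were SNHG6 at 0.470 (0.402 to 0.549), ZFAS1 at 0.472 (0.389 to 0.571) and SNHG8 at 0.758 (0.596 to 0.964). SNHG5 at 0.848 (0.643 to 1.12), SNHG16 at 0.936 (0.862 to 1.02) and SNHG12 at 0.989 (0.730 to 1.34) included 1. The standard deviation of the log2 fold over the 10 hosts was 0.30 in the LC3B pull-down and 0.77 in the IgG pull-down. Genes of at least 20 CPM showed the same order, with 0.69 in the LC3B pull-down and 1.60 in the IgG pull-down, so the wider spread with IgG was not particular to the hosts. The median log2 fold was -0.05 over the hosts, -0.43 over all genes tested and -0.20 over genes of at least 20 CPM. The summed counts gave a fold of 1.08 (1.03 to 1.13), and summed TPM turned the direction, at 0.895. With mitochondrial reads in the totals SNHG1 at 2.76 (2.29 to 3.34) and GAS5 at 2.36 (2.09 to 2.68) were called higher over the IgG input. Those totals also raised the number called higher among the 15431 genes tested, from 1495 to 2364.

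**Figure D3:**
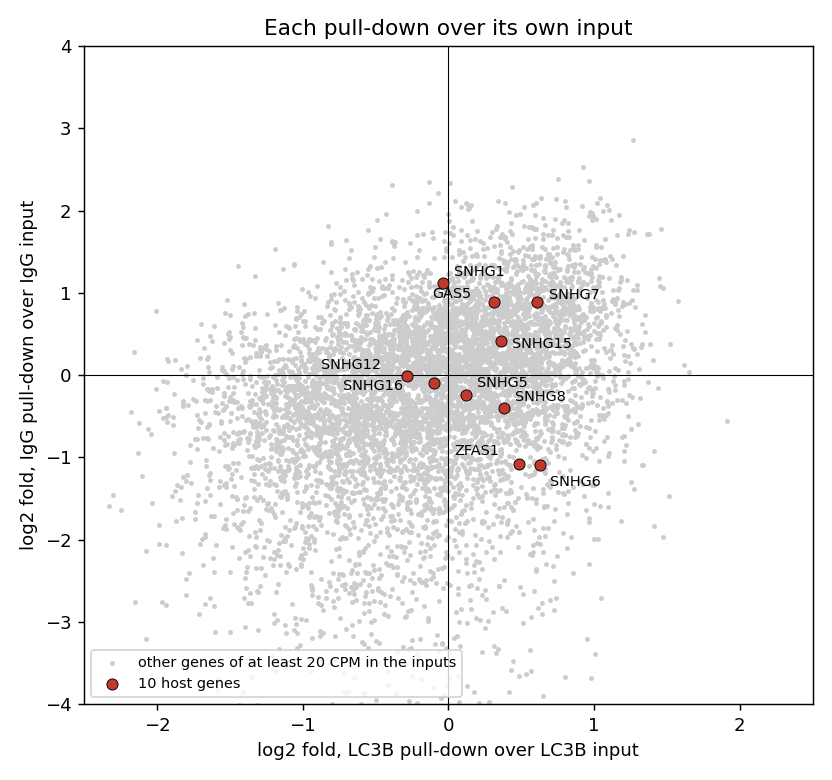
Log2 fold over input with LC3B (horizontal) against log2 fold over input with IgG (vertical), with the 10 host genes in red and 6722 other genes averaging 20 CPM or more in the inputs in grey. A further 217 genes fall outside the axes and 231 have 0 reads in a library. SNHG6 and ZFAS1 lie together at lower right, above input with LC3B and below it with IgG, and SNHG1, GAS5 and SNHG7 lie in the upper part.

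Dividing the fold of each pull-down over its input, LC3B by IgG, removes what the inputs differed by. This input-corrected ratio was 3.28 for SNHG6 (log-normal 95% counting interval 2.703 to 3.97), 2.96 for ZFAS1 (2.36 to 3.72) and 1.72 for SNHG8 (1.28 to 2.30). It was 0.451 for SNHG1 (0.343 to 0.591) and 0.670 for GAS5 (0.564 to 0.796). The remaining 5 hosts lay between 0.825 (SNHG7) and 1.28 (SNHG5), with intervals that included 1. Box C/D hosts stood at both ends of this order, with SNHG6 and ZFAS1 highest and SNHG1 and GAS5 lowest. The ratio was computed for the 10 hosts only, so no share of all genes stands beside it.

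Between the inputs, which had no antibody, the hosts ran from a fold of 0.916 (SNHG6) to 1.30 (SNHG5) in the LC3B over the IgG input, and 0 were called in either direction (0.136% higher and 0.156% lower among genes tested, 0% and 0.0139% at 20 CPM and more). The central 95% of genes of at least 20 CPM lay between 0.811 and 1.31 in the same comparison. The intervals of SNHG5 (1.01 to 1.68), SNHG8 (1.01 to 1.57) and GAS5 (1.004 to 1.33) lay just above 1, against 12.7% of genes tested above and 8.94% below, and 14.5% above and 12.4% below at 20 CPM and more. The folds of ZFAS1, SNHG6, SNHG8, SNHG5, GAS5 and SNHG1 between the pull-downs lay outside 0.811 to 1.31, but the inputs are not replicates of the pull-downs. SNHG5 and SNHG1 also averaged below 20 CPM in the inputs. Between the pull-downs the central 95% of genes of at least 20 CPM was far wider. It ran from 0.336 to folds without an upper limit, from genes with 0 reads with IgG, and every host lay inside it.

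Read counts and deposited TPM did not give the same fold for every host. The ratio of counts to TPM depends on the transcript lengths that the authors' software assigned, and for 516 genes with a single transcript and at least 50 reads in each library it moved in parallel between the pull-downs, within 0.993 to 1.003 times its median for the central 95%. For GAS5, with 31 transcripts in the tables, this ratio was 0.75 with LC3B relative to IgG, and its fold was 0.774 in counts but 1.05 in TPM. SNHG5, with 89 transcripts, had a ratio of 0.75 and folds of 1.67 in counts and 2.26 in TPM. SNHG15 (ratio 0.79) had folds of 1.07 in counts and 1.38 in TPM, and SNHG12 (ratio 0.82) of 0.819 and 1.03. The hosts with the largest count differences moved less, with ratios of 0.89 for ZFAS1, 1.01 for SNHG6, 0.92 for SNHG8 and 1.05 for SNHG1, and kept their side of 1. A ratio under 1 corresponds to a shorter assigned length with LC3B than with IgG, and gene-level tables do not show which transcripts were involved.

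**Figure D4:**
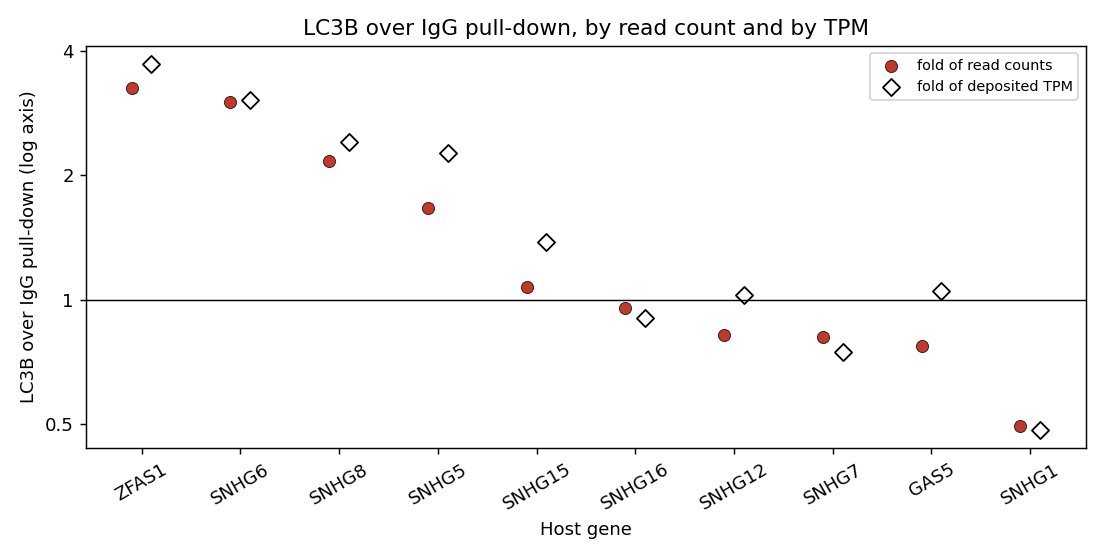
Fold of the LC3B over the IgG pull-down (log axis) of each host gene, from read counts (filled circles) and from deposited TPM (open diamonds), both relative to the total outside mitochondrial genes. The markers part most for SNHG5 (1.67 and 2.26), SNHG15 (1.07 and 1.38) and GAS5 (0.774 and 1.05), and GAS5 and SNHG12 change their side of 1.

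The snoRNAs themselves were practically not read. The tables list 29 small RNA features inside 9 of the hosts on the same strand, 24 of them with a snoRNA symbol and none inside GAS5, and together these had 0 reads with LC3B, 0 with IgG, 0 in the input of LC3B and 1 in that of IgG. A count of 0 allows up to 3 reads, or 0.289 CPM in the LC3B pull-down and 0.305 CPM in the IgG pull-down. The labels give the RNA as poly(A) RNA, and mature snoRNAs have no poly(A) tail; the part of this in the low counts was not tested.

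Some hosts share bases with genes on the other strand, and since no source used here gives the strand setting of the counting, reads of such pairs cannot be told apart there. ZFAS1 overlaps ZNFX1 by 249 bases, and ZNFX1 (a helicase gene) had 346 reads with LC3B and 352 with IgG, a fold of 0.931 (0.80 to 1.08) against 3.24 for ZFAS1. SNHG6 overlaps MCMDC2 by 365 bases, and that gene had 4 and 0 reads in the LC3B and IgG pull-downs. ZBTB37, which overlaps the 5' end of GAS5 by 801 bases, had 65 reads with LC3B and 0 with IgG. SLC3A2, a transporter heavy chain gene that starts 149 bases from SNHG1 on the other strand, had 5440 reads with LC3B and 6365 with IgG, a fold of 0.809 (0.780 to 0.839). Over input, SLC3A2 stood at 1.83 (1.75 to 1.92) with LC3B and 2.54 (2.42 to 2.67) with IgG, where SNHG1 stood at 0.977 with LC3B and 2.17 with IgG.

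Of 17 other non-coding hosts tested among 20 listed, 4 (23.5%) were called higher with LC3B than with IgG and 1 (5.88%) lower. The shares were 33.8% and 9.45% over all genes tested, and 18.7% and 6.9% at 20 CPM and more. The median log2 fold of these hosts was -0.04. SNHG18 had 388 reads with LC3B and 1 with IgG, a fold of 367 (65.6 to 14548), and SNHG19, SNHG20 and SNHG29 had folds of 5.16 (3.50 to 7.84), 4.46 (3.27 to 6.21) and 2.29 (2.08 to 2.53). Over the LC3B input these 4 stood at 1.71, 2.53, 0.991 and 0.922, and over the IgG input at 0.00607, 0.758, 0.338 and 0.424. SNHG18, SNHG20 and SNHG29 were the 3 hosts of the list called lower over the IgG input (17.6%, against 33.6% of all genes tested). SNHG14, the long host of imprinted snoRNA clusters, was called lower at 0.365 (0.308 to 0.431) and was also lower than in the LC3B input at 0.287 (0.243 to 0.338). SNHG30 was called higher over input in both pull-downs, at 2.60 (2.31 to 2.94) with LC3B and 3.27 (2.89 to 3.72) with IgG.

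Protein-coding snoRNA hosts outside the ribosomal protein genes had 1 of 14 members (7.14%) called higher and 2 (14.3%) lower with LC3B than with IgG, against 33.8% and 9.45% of all genes tested. NCL, which encodes nucleolin, stood at 2.15 (2.04 to 2.26), and PPAN at 0.381 (0.338 to 0.429) and WDR43 at 0.206 (0.183 to 0.231), both ribosome biogenesis factors, were lower. Over the LC3B input NCL stood at 0.801 (0.771 to 0.833), PPAN at 0.986 (0.850 to 1.14) and WDR43 at 0.351 (0.309 to 0.398). Over the IgG input NCL stood at 0.358, PPAN at 3.35 and WDR43 at 1.41. Ribosomal protein mRNAs, which share the TOP start, had 17 of 83 (20.5%) called higher and 0 lower. That share was below the 33.8% of all genes tested and near the 18.7% of genes at 20 CPM and more. Their median log2 fold was 0.64, beside 0.41 over all genes tested and 0.01 over the 10 hosts. Over the LC3B input their median was 0.44 with 2 called higher (2.41%, against 1.4% of all genes tested and 1.21% at 20 CPM and more). Over the IgG input their median was -0.36 with 6 called lower. That was 7.23%, below the 33.6% of all genes tested and the 20.5% at 20 CPM and more. TOP mRNAs of translation factors had 0 of 15 called between the pull-downs, a median of 0.44, and medians of 0.05 over the LC3B input and -0.39 over the IgG input. No difference between these lists and the 10 hosts was tested.

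A list of long non-coding RNAs set up as nuclear-retained, though NORAD is known to be largely cytoplasmic, had 2 of 9 members (22.2%) called higher with LC3B than with IgG, KCNQ1OT1 at 9.47 (2.30 to 83.6) and TUG1 at 2.42 (2.03 to 2.89). Called lower were 3 (33.3%, against 9.45% of all genes tested), MALAT1 at 0.209 (0.204 to 0.213), NEAT1 at 0.392 (0.351 to 0.436) and MIR17HG at 0.0661 (0.0131 to 0.206). Over the LC3B input their median log2 fold was -0.90, beside 0.01 over all genes tested and 0.34 over the hosts. Of the 9, 8 had intervals wholly below 1, against 31.1% of genes tested and 46.1% at 20 CPM and more. The exception, MIR17HG, rests on 3 reads with LC3B and 7 in the input. Called lower than in the LC3B input were 3, against 4.48% of genes tested, NORAD at 0.347 (0.315 to 0.382), MALAT1 at 0.381 (0.371 to 0.390) and NEAT1 at 0.440 (0.393 to 0.492). Among snoRNP proteins, FBL (fibrillarin, the box C/D methyltransferase) at 3.66 (3.16 to 4.26) and the assembly factor NAF1 at 10.0 (4.04 to 32.2) were called higher of 10 (20%) between the pull-downs, and 0 lower. Of 14 nonsense-mediated decay factors, SMG5 at 22.5 (15.2 to 34.7), MAGOH at 6.66 (5.57 to 8.03) and UPF2 at 3.07 (2.25 to 4.24) were called higher (21.4%) and SMG6 at 0.272 (0.227 to 0.325) and UPF3B at 0.308 (0.258 to 0.367) lower (14.3%). Of 7 TOP mRNA regulators, 2 (28.6%) were called higher between the pull-downs and 0 lower, TIAL1 at 4.34 (3.16 to 6.06) and MTOR with 94 reads with LC3B and 0 with IgG. In each of these lists the share called higher was below the 33.8% of all genes tested and above the 18.7% of genes at 20 CPM and more. For lower calls these backgrounds were 9.45% and 6.9%. Each list also held members below 20 CPM in the inputs. Over the LC3B input FBL, NAF1, SMG5, MAGOH, UPF2, TIAL1 and MTOR stood at 1.11, 1.36, 1.34, 1.79, 0.667, 1.28 and 0.798. Over the IgG input they stood at 0.325, 0.0995, 0.0693, 0.256, 0.225, 0.351 and 0. NAF1 had 5 reads with IgG and SMG5 had 26. SMG6 and UPF3B stood at 1.06 and 0.412 over the LC3B input and at 4.42 and 1.24 over the IgG input.

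Among the genes whose pair of folds over input lay closest to that of the summed hosts, by Euclidean distance of the log2 folds among 2297 genes averaging 100 CPM or more in the inputs, were ORMDL2 (distance 0.03), PFDN5 (0.04), ZNF706 (0.04) and HPS4 (0.04). Their folds lay between 1.16 and 1.23 in the LC3B pull-down and between 1.05 and 1.08 in the IgG pull-down, against 1.19 and 1.08 for the summed hosts. The likeness rests on 4 libraries.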

How the data were processed

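Raw read counts per Ensembl gene and TPM values were deposited by the authors, per the file headers. Commas that grouped digits were removed. TPM had been scaled within each library by the authors, with transcript lengths not given in the sources used here. cutadapt 2.8, STAR 2.7.1a and build hg38 are named in the submitters' processing notes. No source used here gives the counting tool, annotation release, strand setting or handling of duplicate or multi-mapped reads. Libraries were prepared with the SMART-Seq v4 low-input kit from a native nuclear immunoprecipitation, per the labels' protocols. The 4 libraries were assigned to groups by their titles.

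Counts were divided by each library's total outside mitochondrial genes. Genes averaging 1 CPM or more were kept. Folds have exact conditional binomial (Clopper-Pearson) 95% intervals, computed with scipy 1.17.1, and 1 library per group allowed no test across samples. Median log2 folds used 0.5 CPM as pseudocount, and the input-corrected ratio added 0.5 to each count. The interval and call code was tested on simulated counts. Alternatives were other totals, trimmed-mean and median-of-ratios scaling (purpose-written code), TPM, pooled inputs, thinning, other thresholds, filters and pseudocounts.

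All 10 members were named. Members of the other lists were named where called, at most 5 per list and comparison, taking those with the bound furthest from 1, beside overlapping or divergent genes and the genes most like the summed hosts (the 5 closest were taken). Some genes that these rules name are not reported here. Cell line and other cell type genes are given as checks. The members and lists were chosen with earlier results of these data known. Start sequences came from the RefSeq promoter table, GRCh38.p14.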

Additional observations from a re-analysis of the deposited data

Results flagged for a closer look

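SNHG6, ZFAS1 and SNHG8 were above their input in the LC3B pull-down and below it in the IgG pull-down, with both counting intervals on opposite sides of 1. Their input-corrected ratios were 3.28 for SNHG6, 2.96 for ZFAS1 and 1.72 for SNHG8. Each rests on 1 library per group, so the difference was not tested across samples. Among all genes tested, 30.7% had intervals above input with LC3B and 53.4% had intervals below input with IgG. At 20 CPM and more these shares were 35.8% and 51.5%. The share of genes with both was not counted, so the split is not shown to be particular to these hosts. With mitochondrial reads in the totals the IgG folds were 0.598 for SNHG6, 0.600 for ZFAS1 and 0.965 (0.758 to 1.23) for SNHG8, and the last interval then included 1. Median-of-ratios scaling also brought 1 into the interval of SNHG8 with IgG, at 0.797 (0.627 to 1.01).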

How the results depend on the processing

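No paired analysis was possible because each group holds 1 library. Between the pull-downs, ZFAS1 and SNHG6 were called higher with LC3B under all 6 other scalings tried, TPM and thinning among them. With a bound of 1.5 or with the point fold past 2, 3 hosts were higher in that comparison (SNHG8 added) and 1 lower (SNHG1). Over the IgG input, 2 hosts were higher with totals of all genes, beside 2364 of 15431 genes tested. With the main totals, 3 hosts were higher over that input with a bound of 1.5 and 1 by point fold. Under either threshold 2 were lower. The shares of all genes at the bound of 1.5 and by point fold were not computed, so host counts at these thresholds have no background. With totals of all genes the summed fold was 1.49 for LC3B over input and 1.37 for IgG over input, and the median log2 fold of LC3B over input 0.66. In TPM the summed folds were 1.58 between the pull-downs, 1.29 for LC3B over input, 0.895 for IgG over input and 1.10 between the inputs, and the median between the pull-downs was 0.26. Median-of-ratios scaling gave summed folds of 1.06 between the pull-downs and 1.13 over the IgG input. Without SNHG16, the most abundant member, they were 1.23 between the pull-downs, 1.31 over the LC3B input and 1.15 over the IgG input. Only SNHG1 and SNHG15 overlap no gene other than small RNA features, and their median log2 folds were -0.45 between the pull-downs and 0.75 over the IgG input. Of 40 host folds, 8 changed their side of 1 with totals of all genes and 4 in TPM. Depth limits SNHG12 and SNHG5 most.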
